A study of Mus musculus with 4 samples.

Results

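In all, 8 genes of the fast skeletal muscle fibre, Actn3, Pvalb, Tnnc2, Tnnt3, Atp2a1, Myh1, Myl1 and Casq1, were followed in RNA of whole mouse heart. They were taken as all probe sets that the array annotation assigns to 1 of these symbols, which gave 12 probe sets for 8 genes, of 12422 probe sets without controls and 8251 named genes. The genes were chosen by their signals and their heterozygous against wild-type differences on these same arrays, so both are given as descriptions, with no p-value. Expression was measured on 1-colour oligonucleotide arrays in 2 pools of wild-type hearts and 2 pools of heterozygous hearts. All animals were adult males of 8 to 16 weeks on a 129/Black Swiss background, and 5 hearts were combined per pool. Nothing in the labels shows that the pools of a genotype came from separate animals, so the errors may be technical and cover the spread of these 4 samples alone, with the variation among single animals partly averaged out by pooling.

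Striated muscle builds the same contractile and calcium-handling machine from different gene copies. Fast skeletal fibres use the alpha-actinin ACTN3 at the Z-disc, the fast myosin heavy chains, fast troponins, the calcium pump SERCA1 and the soluble calcium buffer parvalbumin, which together shorten contraction and relaxation. Heart muscle uses the cardiac or slow copies, such as ACTN2, the alpha and beta myosin heavy chains, troponin C1, troponin T2, SERCA2 and calsequestrin 2. Adult ventricle is not a usual site of the fast copies, whereas the striated muscle of the body wall, diaphragm and mouse oesophagus is.

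Promoter sequence is shown for genes from each side of the pattern described next: Myh1 and Pvalb were lower in heterozygous pools, and Myl1 and Casq1 were higher. The sequences are the 250 bases before an annotated start of the gene in RefSeq on build GRCm38.p6, written 5′ to 3′ on the gene's strand. Windows for 6 of the 8 genes were matched, 7 windows in all because Pvalb has a pair of starts, and Actn3 and Tnnt3 were not matched. Myh1 lies on the plus strand at chr11:67199852-67200101, and the others on the minus strand: Pvalb at chr15:78206401-78206650, Myl1 at chr1:66945057-66945306 and Casq1 at chr1:172219896-172220145. Capitals mark matches to any of 5 motifs common in muscle promoters, searched on both strands: the E-box (CANNTG), the TATA box (TATAAA), the MCAT element (CATTCC), and the MEF2 and CArG consensus motifs.
Myh1: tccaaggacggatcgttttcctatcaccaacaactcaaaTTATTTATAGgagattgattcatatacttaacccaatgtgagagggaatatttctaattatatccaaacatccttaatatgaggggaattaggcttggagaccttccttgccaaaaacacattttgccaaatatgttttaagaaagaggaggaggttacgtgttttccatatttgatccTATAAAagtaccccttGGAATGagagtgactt
Pvalb: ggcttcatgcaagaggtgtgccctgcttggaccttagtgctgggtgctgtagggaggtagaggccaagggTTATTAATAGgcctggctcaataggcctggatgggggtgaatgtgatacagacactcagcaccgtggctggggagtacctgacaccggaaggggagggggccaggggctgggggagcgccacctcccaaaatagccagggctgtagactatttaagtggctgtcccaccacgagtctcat
Myl1: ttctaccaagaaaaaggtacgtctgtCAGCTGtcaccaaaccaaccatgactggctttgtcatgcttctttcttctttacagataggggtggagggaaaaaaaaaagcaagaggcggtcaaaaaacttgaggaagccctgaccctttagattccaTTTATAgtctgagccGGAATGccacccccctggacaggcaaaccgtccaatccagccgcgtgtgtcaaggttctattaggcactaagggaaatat
Casq1: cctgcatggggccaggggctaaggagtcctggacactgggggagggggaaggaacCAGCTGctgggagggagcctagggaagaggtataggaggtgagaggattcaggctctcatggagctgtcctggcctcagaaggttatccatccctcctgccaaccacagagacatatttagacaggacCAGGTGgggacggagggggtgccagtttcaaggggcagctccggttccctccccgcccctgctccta
In the Myh1 window a MEF2 match, which overlaps a TATAAA match on the other strand, ended 201 bases before the start. A second TATA box ended 26 bases before the start and an MCAT match 10 bases before it. Pvalb held 1 MEF2 match, 170 bases before the start shown. Myl1 held an E-box, a TATA box match on the other strand and an MCAT match. Casq1 held 2 E-boxes, 189 and 61 bases before its start. Over the 7 windows, 5 held an E-box, against 66.2% of all 32851 windows of the same length in the table. A MEF2 match stood in 2 of 7 (2.92% of all windows), a TATA box in 2 (12.4%), an MCAT element in 2 (12.6%) and a CArG box in 0 (1.47%). These are matches of letters, not measured binding.

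The 8 genes did not move as a block. On the brightest probe set of each gene, 6 genes had lower signals in heterozygous pools (Actn3, Pvalb, Tnnc2, Tnnt3, Atp2a1 and Myh1) and 2 had higher signals (Myl1 and Casq1). Over all 12 probe sets the median log2 change, heterozygous minus wild type, was -1.09, beside a median of 0.00 and quartiles of -0.49 and 0.43 over all 7453 tested probe sets. Wild-type and heterozygous values were separate on each of the 12, with 10 lower and 2 higher in heterozygous pools. One of the lower ones, the dim probe set of Tnnc2, had 3 of 4 values below the floor of 36.25, where values have no order. Among all 12422 probe sets, 29.6% were lower without overlap and 29.1% were higher without overlap. Of the 12 probe sets, 9 passed the filter on dim probe sets and 3 did not (the second ones of Actn3, Pvalb and Tnnc2). The fit with limma called 7 of the 9 lower and 2 higher, where 38.3% of all tested probe sets were called, 20.4% lower and 17.9% higher. Among these calls over all tested probe sets, 46.8% were higher, and 62.5% were higher with arrays shifted to a common median (5.80% with arrays centred on the cardiac isoforms). That contrast was known when the genes were chosen, so nothing is read from these counts. In RNA of whole tissue, fewer cells of a type and less RNA per cell cannot be told apart.

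**Figure D1:**
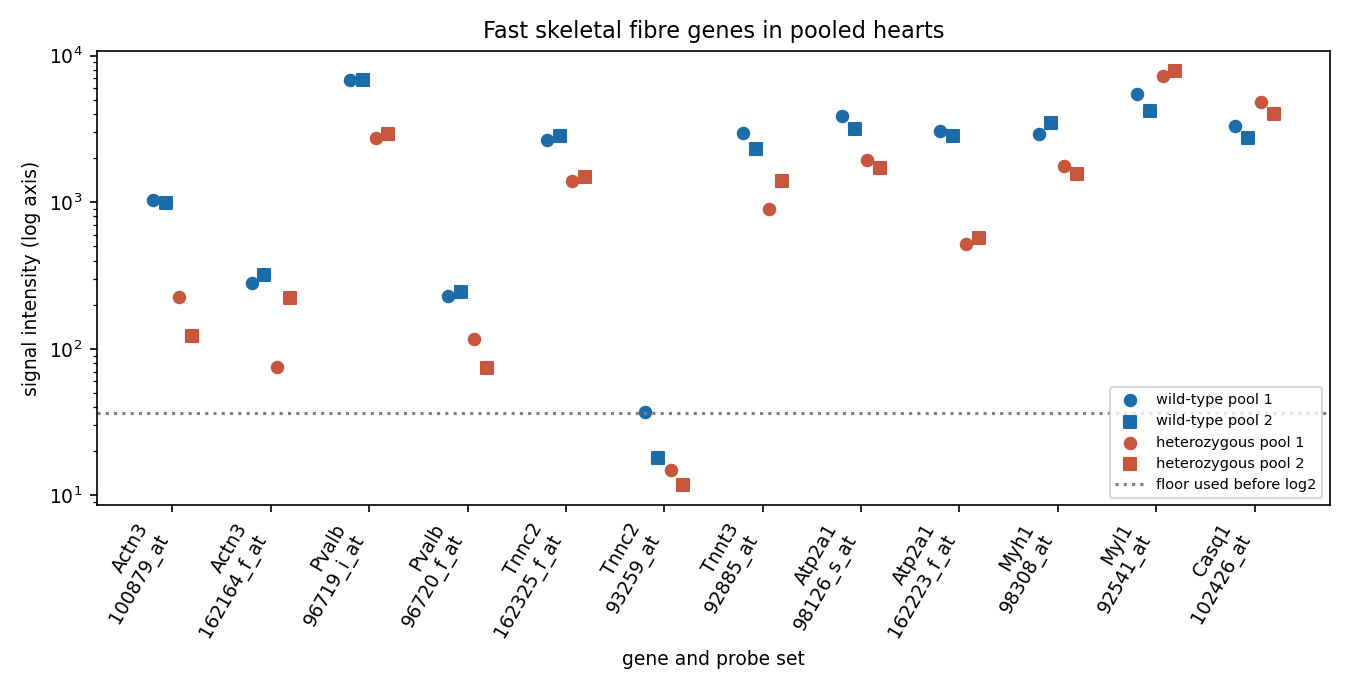
Deposited signal of each probe set of the 8 genes (log axis) in the 4 pools, with wild-type pools in blue and heterozygous pools in red, circles for pool 1 and squares for pool 2. The dotted line is the floor of 36.25 used before log2. Heterozygous points lie below the wild-type points on 10 probe sets and above them for Myl1 and Casq1.

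Among proteins of the Z-disc and the thick filament, Actn3 showed the largest difference of the 8 genes on its brightest probe set. ACTN3 cross-links actin at the Z-disc of fast fibres. Its signal on probe set 100879_at was 1031 and 993 in wild-type pools, and 224 and 122.5 in heterozygous pools. Both wild-type pools were thus high and close together, while the heterozygous pools were low and differed from each other. The mean went from 1012 ± 26.9 to 173 ± 71.8 (SD, n = 2), 6.11-fold lower, with a log2 change of -2.61 (SE 0.37). The dimmer probe set 162164_f_at gave 282.1 and 318.2 against 74.9 and 221.9, also without overlap, but with heterozygous pool 2 nearer the wild-type values. Its log2 change of -1.22 was -2.00 without heterozygous pool 2 and -0.43 without heterozygous pool 1.

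Myh1 encodes the myosin heavy chain of type 2X fibres. Its only probe set, 98308_at, read 2936.1 and 3500.8 in wild-type pools and 1755.4 and 1558 in heterozygous pools. Every heterozygous value lay below every wild-type value. The heterozygous mean was 1.94-fold lower (3218 ± 399 against 1657 ± 140, SD, n = 2; log2 change -0.96, SE 0.17). Sequence is shared widely among myosin heavy chain genes, and cross-detection of other members by these probes was not tested.

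Myl1, the essential light chain of fast myosin, went the other way. Its signals were 5524.3 and 4189.1 in wild-type pools and 7226.1 and 7815.7 in heterozygous pools. The heterozygous pools were both above the higher wild-type pool. The means were 4857 ± 944 and 7521 ± 417 (SD, n = 2), a log2 change of 0.64 (SE 0.17) or 1.56-fold. The value depended on the scaling between arrays: it ranged from 0.07, with arrays centred on the cardiac isoforms, to 0.82, with arrays shifted to a common median.

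Both troponin genes of the thin filament were lower. Tnnc2 encodes the calcium-binding subunit of fast fibres. On probe set 162325_f_at it read 2668.2 and 2822.9 in wild-type pools against 1392.1 and 1482.8 in heterozygous pools. The 4 values formed tight pairs, 2746 ± 109 and 1437 ± 64.1 (SD, n = 2), which put the heterozygous pools 1.91-fold lower (log2 change -0.93, SE 0.16). The other Tnnc2 probe set, 93259_at, stayed at the bottom of the scale. It read 37.1 and 18.1 against 15 and 11.8, and 3 of these 4 values were below the floor, so it gives no measure of a change.

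Tnnt3 encodes the subunit that ties fast troponin to tropomyosin. Its signals were 2960.5 and 2305.5 in wild-type pools and 905.3 and 1398.4 in heterozygous pools. The groups did not overlap, although both varied more than Tnnc2 did. The mean of 2633 ± 463 stood against 1152 ± 349 (SD, n = 2), 2.32-fold lower, with a log2 change of -1.22 (SE 0.24).

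Pvalb, the calcium buffer that speeds relaxation of fast fibres, was the member with the closest replicates. Probe set 96719_i_at read 6857.5 and 6863.4 in wild-type pools and 2748 and 2909.4 in heterozygous pools. The genotypes differed by far more than the pools within a genotype: 6860 ± 4.17 against 2829 ± 114 (SD, n = 2), 2.43-fold lower, with a log2 change of -1.28 (SE 0.14). The second probe set, 96720_f_at, was dim and not tested, at 227.6 and 246.1 against 116.6 and 73.5. Its log2 change of -1.35 lay 0.08 from that of the brighter one.

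Atp2a1 encodes SERCA1, the pump that returns calcium to the sarcoplasmic reticulum of fast fibres. Its probe sets shared the direction and differed in size. Probe set 98126_s_at read 3899.5 and 3186.7 in wild-type pools and 1942 and 1719.1 in heterozygous pools, 1.93-fold lower (log2 change -0.95, SE 0.17). Probe set 162223_f_at read 3053.3 and 2824.9 against 517.5 and 573, 5.39-fold lower (log2 change -2.43, SE 0.18). In both cases the genotypes were separate. By the array's naming, an ID ending in s or f marks probes that can match more than 1 transcript or family member. This also holds for the brighter Tnnc2 and the dimmer Actn3 and Pvalb probe sets, and for those of cardiac Atp2a2 and Myh7. Which of the values is closer to Atp2a1 itself was not tested.

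Casq1, the calsequestrin that stores calcium in skeletal sarcoplasmic reticulum, was higher in heterozygous pools. Its signals were 3337.2 and 2752.6 in wild-type pools and 4844.4 and 4015.6 in heterozygous pools. The lower heterozygous pool was above the higher wild-type pool. The means were 3045 ± 413 and 4430 ± 586 (SD, n = 2), a log2 change of 0.54 (SE 0.17) or 1.46-fold. With arrays centred on the cardiac isoforms the value was -0.03, while under the other scalings it remained above 0.

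The heart's own isoforms of these proteins were set beside them. Of 9 cardiac counterparts tested, 7 rose, none fell and 2 did not pass (limma, Benjamini-Hochberg adjusted p under 0.05), where 19.5% of 5692 genes were called higher on their brightest probe set. Their median log2 change was 0.61, with a range of 0.39 to 0.83. At an unadjusted p under 0.05, 8 were higher and 0 lower. The adjusted calls depended on the processing: 3 were left under cyclic loess and 0 without the filter on dim probe sets. They also changed when a single pool was left out. Without the filter, 6 had an unadjusted p under 0.05, and the log2 changes are the same as with it by construction. With arrays centred on these isoforms, 0 were called, which follows from the centring.

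Tnnc1, the troponin C of heart and slow fibres, gave signals of 62863.3 and 56690 in wild-type pools and 92231.8 and 97385.7 in heterozygous pools (log2 change 0.67, SE 0.12, limma adjusted p = 0.00333). Tnnt2, cardiac troponin T, rose 1.53-fold from 50705 ± 76.3 to 77583 ± 5211 (SD, n = 2; limma adjusted p = 0.00475). Atp2a2, the cardiac calcium pump SERCA2, rose 1.55-fold from 44426 ± 1057 to 68857 ± 1798 (SD, n = 2; limma adjusted p = 0.00365). All 3 moved opposite in sign to the fast copy of the same protein. The calls ended without heterozygous pool 2 (log2 changes of 0.63, 0.54 and 0.66), that of Atp2a2 also without heterozygous pool 1 (0.61), and those of Tnnt2 and Atp2a2 under cyclic loess (0.24 and 0.27).

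Among the myosin subunits, Myl3, the ventricular essential light chain, rose 1.59-fold (69303 ± 7748 to 110040 ± 4052, SD, n = 2; limma adjusted p = 0.00405), and its atrial relative Myl4 rose 1.78-fold on its brighter probe set (limma adjusted p = 0.00170; log2 change -0.19 and adjusted p = 0.417 on the dimmer one). Myh6, the main adult heavy chain of mouse heart, had a log2 change of 0.40 (limma adjusted p = 0.0321), which was -0.03 under cyclic loess. Its relative Myh7 had one of 0.44 on its brighter probe set (limma adjusted p = 0.0843). That change was 0.71 without wild-type pool 1, and it passed with a common array median (0.62). The dimmer Myh7 probe set, 161547_f_at, was not tested. It read 358.2 and 152.5 against 131.9 and 136.6, lower without overlap (log2 change -0.80). Cross-detection of Myh6 by the Myh7 probes was not tested. Myl3 no longer passed when heterozygous pool 1 (0.71) or 2 (0.63) was left out, nor under cyclic loess (0.26). Myh6 no longer passed when wild-type pool 2 (0.31) or either heterozygous pool (0.39 and 0.41) was left out. Casq2, the cardiac calsequestrin, rose 1.43-fold from 1571 ± 98.2 to 2253 ± 307 (SD, n = 2; limma adjusted p = 0.0469), a call that ended when any pool was left out (log2 changes of 0.38 to 0.65). Actn2, the alpha-actinin of heart, read 830.5 and 454.4 in wild-type pools and 829.8 and 781.3 in heterozygous pools, which overlap (log2 change 0.39, SE 0.30, limma adjusted p = 0.343). Signals of different probe sets depend on the probes as well as on the RNA, so the fast and cardiac levels are given side by side and not ranked.

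**Figure D2:**
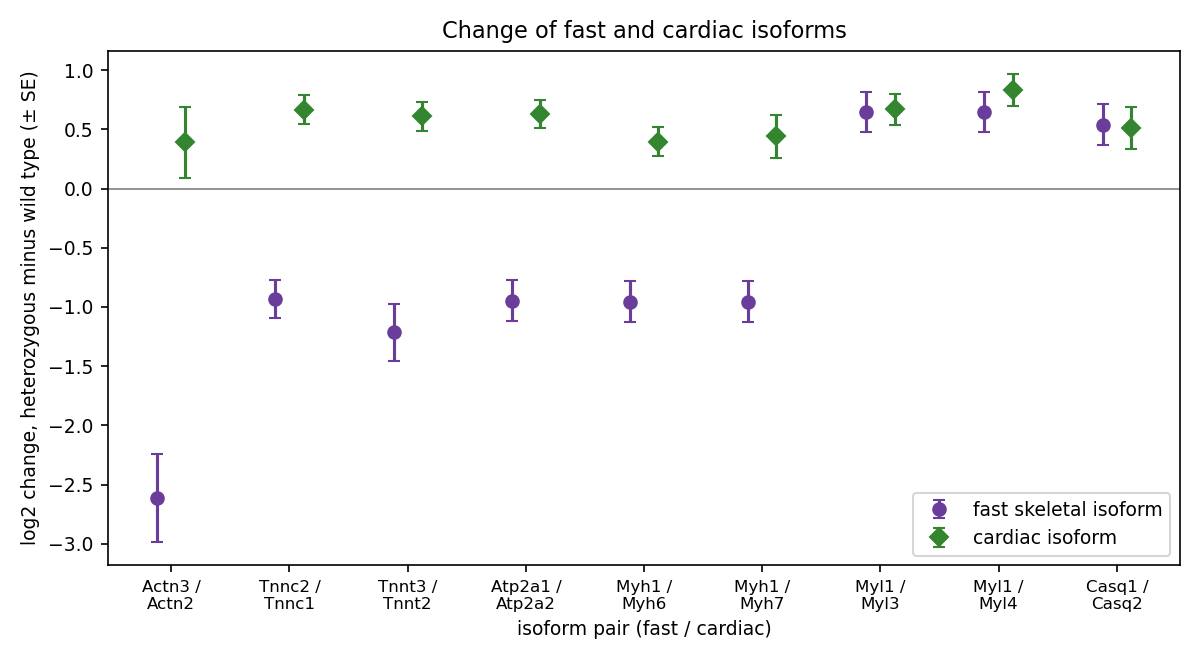
Log2 change of signal, heterozygous minus wild type, for the fast isoform (circles) and its cardiac counterpart (diamonds) of each pair, on the brightest probe set, with bars of 1 limma SE. The fast isoforms of the first 6 pairs lie below 0, from -2.61 to -0.93, while Myl1 at 0.64 and Casq1 at 0.54 lie among the cardiac isoforms, which range from 0.39 to 0.83.

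The ratio of fast to cardiac signal within a pool does not depend on a single scale factor of the array. Over 9 pairs, the median change of this log2 ratio was -1.40. In 6 pairs both heterozygous pools lay below both wild-type pools, and in 3 pairs the pools overlapped. The fast values in these ratios are those by which the genes were chosen. The 6 pairs hold only fast genes that were already lower without overlap on their own. The count and the median are therefore descriptions, and no share over other gene pairs was computed. Actn3 over Actn2 changed most, from log2 ratios of 0.31 and 1.13 to -1.89 and -2.67, a change of -3.00 (SE 0.57). Tnnc2 over Tnnc1 went from -4.56 and -4.33 to -6.05 and -6.04, a change of -1.60 (SE 0.12) or 3.03-fold. Tnnt3 over Tnnt2 changed by -1.83 (SE 0.30) and Atp2a1 over Atp2a2 by -1.58 (SE 0.18). Myh1 changed by -1.35 (SE 0.22) relative to Myh6 and by -1.40 (SE 0.41) relative to Myh7, which are not independent because the same Myh1 values enter both.

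The remaining 3 pairs did not separate the genotypes. Myl1 over Myl3 read -3.76 and -3.93 in wild-type pools and -3.89 and -3.85 in heterozygous pools, a change of -0.03 (SE 0.087). Myl1 over Myl4 changed by -0.19 (SE 0.24). Casq1 over Casq2 read 1.15 and 0.75 against 1.25 and 0.70, a change of 0.03 (SE 0.34). In these pairs the difference between genotypes was smaller than its error, which does not show that the ratios were equal. Under quantile normalization, cyclic loess and 32 added to each value in place of the floor, the 6 pairs stayed separated. These settings can change the order of the pools in a ratio. A lower floor cannot, because all signals in these pairs lay above the floor used. Over all settings, each pool left out in turn among them, the overlapping pairs ranged from -0.11 to 0.26 (Myl1 over Myl3), from -0.42 to 0.05 (Myl1 over Myl4) and from -0.25 to 0.30 (Casq1 over Casq2).

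**Figure D3:**
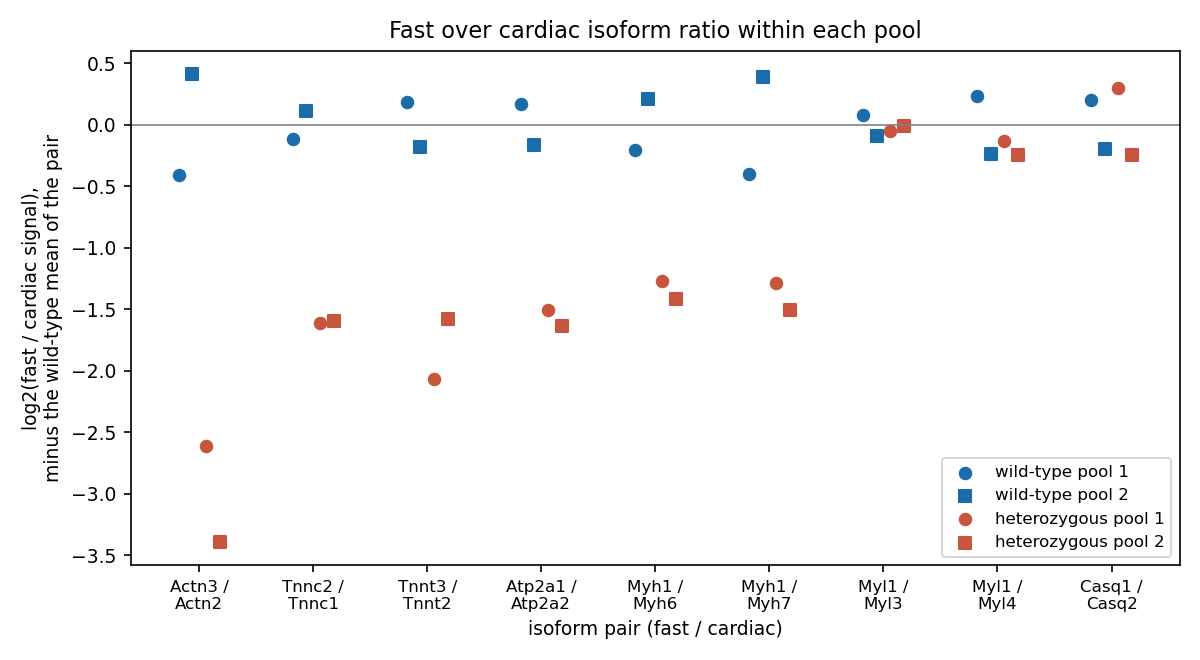
Log2 ratio of fast to cardiac signal in each pool, shown relative to the wild-type mean of its pair, with wild-type pools in blue and heterozygous pools in red. In 6 pairs both heterozygous pools lie below both wild-type pools, and in the pairs of Myl1 and Casq1 the pools overlap.

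Other genes of the fast fibre, from a list of 26 that holds none of the 8, held few calls, and their balance depended on the scaling. Of these, 15 were on the array and 10 had a tested probe set. On the brightest tested probe set, 2 rose, 0 fell and 8 did not pass (limma adjusted p under 0.05). Over all 5692 genes on their brightest tested probe set, 19.5% were called higher and 19.5% lower, so 2 of 10 higher is near that share. With arrays centred on the cardiac counterparts, 1 was higher and 2 were lower. At an unadjusted p under 0.05, 3 were higher and 2 lower in the deposited scaling. Log2 changes ran from -0.93 to 0.97 around a median of 0.16. Both that rose encode glycolytic enzymes of muscle, and whether their signal came from fast fibres or from heart muscle was not tested. Pgam2, the muscle phosphoglycerate mutase, had a log2 change of 0.97 (SE 0.13, limma adjusted p = 8.0e-04), and Eno3, the muscle enolase, one of 0.82 (SE 0.14, limma adjusted p = 0.00227). The Eno3 call ended with arrays centred on the cardiac counterparts (log2 change 0.24, limma adjusted p = 0.154), without heterozygous pool 1 (0.71, limma adjusted p = 0.0535) and without the filter on dim probe sets (limma adjusted p = 0.0737).

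The contractile genes of that list gave mixed values. Tnni2, the inhibitory subunit of fast troponin, read 756.6 and 449.6 against 275.1 and 338.8, lower without overlap, but did not pass (log2 change -0.93, SE 0.36, limma adjusted p = 0.0674). It passed as lower without wild-type pool 2 (-1.31) and with arrays centred on the cardiac counterparts (-1.51, limma adjusted p = 0.00517). Myoz1, a Z-disc protein of fast fibres, read 881.4 and 1167.2 against 775 and 521.2 (log2 change -0.67, SE 0.27, limma adjusted p = 0.0745), and it passed as lower with the same centring (-1.25, limma adjusted p = 0.00590). Mylpf, the fast regulatory light chain, overlapped between the genotypes on its tested probe set (log2 change -0.10, limma adjusted p = 0.764). Its other probe set, 162101_f_at, was too dim to test and read 119.3 and 221.7 against 8.4 and 7.8, with both heterozygous values below the floor. Ryr1, the release channel of skeletal muscle, overlapped as well (log2 change -0.06, limma adjusted p = 0.919). In the same list, other probe sets too dim to test separated the genotypes in both directions. Mybph read 273.6 and 296.8 against 360 and 403, and Clcn1 on 95376_at 93.1 and 140.7 against 297.3 and 270, both higher. Sypl2 was lower, at 324.3 and 411.4 against 92.7 and 240.6.

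Myh4, the heavy chain of type 2B fibres, had probe sets that disagreed. The brightest, 161545_r_at, read 477.8 and 686.2 against 649.7 and 948.7 (log2 change 0.46, limma adjusted p = 0.245). The other tested one, 98488_at, singled out after its values were seen, read 712.6 and 773.7 in wild-type pools against 68.4 and 9.7 in heterozygous pools (log2 change -3.90, SE 0.60, limma adjusted p = 0.00128). Its last value was raised to the floor, so the size of the log2 change depends on the floor. It was -4.36 with the floor at the 5th percentile and -3.58 with 32 added to each value in place of the floor. The added 32 also shrinks changes at low signal.

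Genes of slow skeletal fibres, many of which the heart shares, moved mostly upward. Of 6 tested, 4 rose, 1 fell and 1 did not pass, where 19.5% of 5692 genes were called higher and 19.5% lower. The median of the log2 changes was 0.70. Csrp3 (0.94, limma adjusted p = 0.00231), Mb, which encodes myoglobin (0.60, limma adjusted p = 0.00596), and the slow troponins Tnni1 (0.75, limma adjusted p = 0.0107) and Tnnt1 (0.66, limma adjusted p = 0.0154) were higher. With arrays centred on the cardiac counterparts all 4 calls ended (Csrp3 0.37, Mb 0.03, Tnni1 0.18 and Tnnt1 0.09), as they did without the filter on dim probe sets, and Mb also ended under cyclic loess (0.20). Leaving out heterozygous pool 1 ended the calls of Csrp3 (0.79), Mb (0.52) and Tnnt1 (0.60), and leaving out heterozygous pool 2 those of Tnni1 (0.71) and Tnnt1 (0.72). The Tnni1 call also ended without wild-type pool 1 (0.67) and the Tnnt1 call without wild-type pool 2 (0.55). Tnni1, the inhibitory subunit of slow fibres, read 960.7 and 1084.6 against 1664.7 and 1777.9, opposite in direction to the values of Tnni2. The tropomyosin gene Tpm3 fell (-0.62, SE 0.21, limma adjusted p = 0.0430). That call ended under 9 of the alternatives, among them the omission of either wild-type pool (-0.64 and -0.59) or of heterozygous pool 1 (-0.38). Others were a common median (-0.44), quantile normalization (-0.47) and cyclic loess (-0.54). Centring on the cardiac counterparts, which put the median of all tested probe sets at -0.57, left Tpm3 called as lower (-1.19, limma adjusted p = 0.00155).

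Genes of developing skeletal muscle, mostly regulators and receptors, were in many cases too dim to test. The share called over all 5692 tested genes was 19.5% higher and 19.5% lower. Of 16 such genes on the array only 7 had a tested probe set, and 1 of them passed: Des, the intermediate filament gene also made in heart (log2 change 0.79, limma adjusted p = 0.00780; no longer called without heterozygous pool 2, at 0.71, with arrays centred on the cardiac counterparts, at 0.22, or without the filter on dim probe sets). Myod1, a master regulator of skeletal muscle, read 407.6 and 562.2 against 514.5 and 803.6, with overlap (log2 change 0.43, limma adjusted p = 0.319). Myog read 293.5 and 209.5 against 303.9 and 251.3 and was not tested, and Myf5, Musk and Myh3 were below the floor in all 4 pools. Chrna1, the acetylcholine receptor subunit of the muscle endplate, was dim and not tested at 91 and 156.1 against 56.7 and 37.9. Among other untested probe sets, that of Chrnd and the dimmer one of Eya1 were also lower without overlap. A dim probe set each of Chrng, Chrne and Cdh15 was higher without overlap.

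Markers of other tissues moved in the same pools. The counts below stand beside 19.5% called higher and 19.5% called lower over all 5692 tested genes. The heart itself was well represented: 10 of 10 cardiac markers were tested, 9 rose and 1 did not pass, and their summed signal was 431278 to 474175 in wild-type pools and 655453 to 675986 in heterozygous pools. All 10 tested markers of thymus and lymphocytes, of 12 listed, fell (median log2 change -3.26), with a summed signal of 111240 to 113617 against 11768 to 12119. All 5 tested keratin genes of thymic and oesophageal epithelium, of 10 markers listed and 9 on the array, fell as well (median log2 change -1.75), with a summed signal of 21637 to 24338 against 7039 to 7469. Krt13 and Krt4, keratins of stratified epithelium such as that of the oesophagus, fell by 1.75 and 1.14 on the log2 scale (limma adjusted p = 9.4e-05 and 7.9e-04), and Krt18 fell by 2.76. Foxn1, the defining regulator of thymic epithelium, was dim at 36.2 to 114.3 and overlapped. Of 3 tested lung markers 2 rose, with a summed signal over 5 genes of 25113 to 27477 against 52775 to 60216. Of 6 tested adipose markers 1 fell and 5 did not pass, with a summed signal of 32468 to 33259 against 30862 to 32885. No marker on the array was at 0 in all pools. For comparison, the summed signal of the 8 fast fibre genes was 26614 to 29214 in wild-type pools and 21022 to 21037 in heterozygous pools. The part of these other tissues in the values of the fast fibre genes was not tested.

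**Figure D4:**
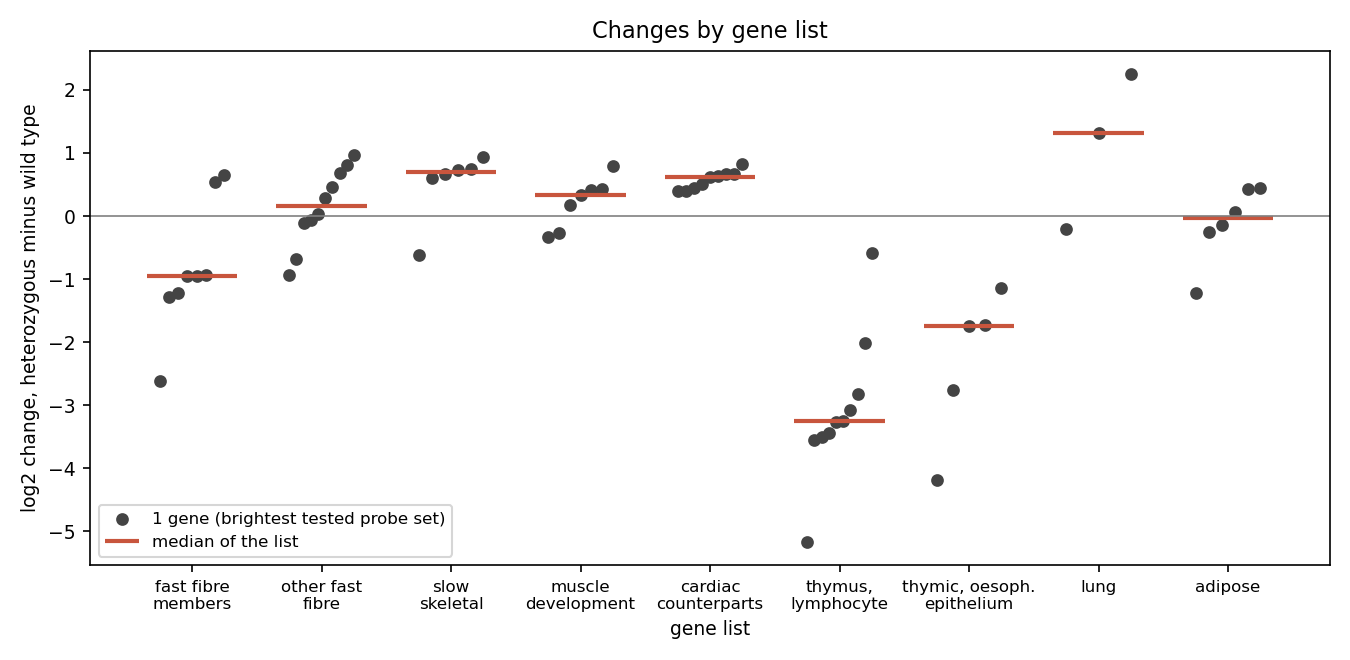
Log2 change of signal, heterozygous minus wild type, of each gene with a tested probe set (points, brightest tested probe set) by gene list, with the list's median as a red line. The fast fibre genes split into 6 below and 2 above 0, the other fast fibre genes spread around their median of 0.16, and the thymus and epithelial lists lie wholly below 0.

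The mean profile of the 9 tested probe sets of the 8 genes, centred on each probe set's own mean, was 0.57 and 0.45 in wild-type pools and -0.49 and -0.53 in heterozygous pools, on the log2 scale. Of 6716 other tested probe sets with 1 gene symbol, the 10 nearest to it by root mean square difference over the 4 pools were those of Ppp1r14b (0.004), Znrf2, Rnaseh2b, Sgpl1, Taf1c, Cd74, Zfp472, H2-D1, Vcam1 and Npc2 (0.045). Their log2 changes ran from -1.08 to -0.95. No gene of the other fast fibre list was among them. With 4 pools this likeness mostly restates a similar difference between genotypes, and the mean profile covers Myl1 and Casq1, whose own profiles run the other way.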

How the data were processed

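The authors deposited 1 linear signal intensity per probe set and array. Neither the software that made them nor a genome build is named (not given in the sources used here). Median intensities were 569.75 and 608.2 in wild-type pools and 508.85 and 531.15 in heterozygous pools without controls. The trimmed means (2% at each end) of the deposited intensities differed by at most 1.01 times, so they were used as deposited. The gene in which the mice were heterozygous is not reported here. The 66 control probe sets were removed, values below the 10th percentile (36.25) were raised to it, log2 was taken, and the 40% of probe sets with the lowest mean were not tested, which left 7453. These were fitted with limma 3.58.1 (lmFit, eBayes with trend) under R 4.3.3, modelling genotype alone. Two-sided p-values were adjusted by Benjamini-Hochberg at 0.05 over all tested probe sets. Folds come from mean log2 signals. SE are limma's for log2 changes, and those of log2 ratios come from the spread of the pools. With 2 pools a side, the smallest two-sided p of an exact permutation test is 0.333. The members and lists were chosen with earlier results of these data known.

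Named are all members, their cardiac counterparts, up to 6 genes per list and direction with the smallest p, and the 10 nearest profiles. Other genes named to describe a list or a tissue were chosen after their values were seen. Of 92 list genes on the array, 92 were found in RefSeq by gene ID. Precision is limited by the number of arrays. The fit was tested on simulated data. Alternatives covered scaling, floor, filter, moderation, the pool number as a block and each pool left out. Plots were drawn with matplotlib 3.10.9.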

Additional observations from a re-analysis of the deposited data

How the results depend on the processing

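All values here are heterozygous against wild type. Without the filter on dim probe sets, 1206 probe sets were called in place of 2856 (482 higher and 724 lower), 1 other fast fibre gene in place of 2, and 0 cardiac counterparts in place of 7. With each pool left out in turn, the calls ran from 1707 to 2289 probe sets, from 1 to 3 other fast fibre genes and from 1 to 7 cardiac counterparts. The median log2 change over the 12 probe sets of the 8 genes was -0.91 with a common median, -0.97 under quantile normalization and -1.06 under cyclic loess. It was -1.66 with arrays centred on the cardiac counterparts and -0.98 with 32 added to each value in place of the floor. With each pool left out it was -1.11 to -0.97. The median change of the fast over cardiac ratio was -1.18 under quantile normalization, -1.19 under cyclic loess, -1.14 with all probe sets of a gene averaged, and -1.56 to -1.14 with each pool left out. The common median shifted all tested probe sets by 0.18 and raised the other fast fibre calls to 4 genes, and the share of higher calls went from 46.8% to 62.5%. Cyclic loess left 3 cardiac counterparts called, and centring on them left 0. Myh6 turned to -0.03 under cyclic loess, and with arrays centred on the cardiac counterparts Myh6 turned to -0.18, Casq2 to -0.06 and Casq1 to -0.03. The cause was not tested, except that centring on a list puts it near 0 by construction. The labels do not say whether pools of the same number belong together. Deviations of same-numbered pools correlated at 0.16 over tested probe sets. The fit with the pool number as a block called 3035 probe sets in place of 2856. These values do not decide whether the numbers pair the samples. At low signal the limit is the array background: 3 of 12 probe sets of the 8 genes were too dim to test.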
